A study of Mus musculus with 28 samples.

Results

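The addition of Pou4f3 to Atoh1 was examined as the difference between the response to doxycycline (Dox) of 2 mouse embryonic stem cell lines, iP+A and iAtoh1. Both lines derive from the A2loxCre line and carry a Dox-inducible cassette with a nuclear Venus reporter. In iAtoh1 the cassette encodes Atoh1 alone, and in iP+A it encodes Pou4f3 and Atoh1, with Flag-tagged Atoh1 and Myc-tagged Pou4f3 separated from each other and from Venus by 2A peptides. The difference was taken on the log2 scale as the Dox effect in iP+A minus the Dox effect in iAtoh1, so that 8 of the 28 libraries entered it, in 4 groups of 2.

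Each line was grown as embryoid bodies, and Dox at 2 µg/ml was present for 48 h from day 4 until collection at day 6. The Dox libraries were made from Venus-positive cells isolated by cell sorting, and the untreated (No Dox) libraries from whole embryoid bodies that had not been sorted. In every Dox effect, exposure to Dox, transgene expression and sorting are therefore joined and cannot be told apart. They were common to both lines, whereas the presence of Pou4f3 in the cassette was not. Line and clone also differed between iP+A and iAtoh1, and they cannot be told apart from Pou4f3. The 2 replicates of a line are described in the series record as different clones, so a difference between lines rests on 2 clones each.

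Atoh1 is a basic helix-loop-helix (bHLH) transcription factor required for hair cells, the mechanosensory cells of the inner ear, and for several neuronal types of the hindbrain and spinal cord. Pou4f3 is a POU homeodomain factor that follows Atoh1 in hair cells and is needed for their survival. Its relatives Pou4f1 and Pou4f2 act in sensory and retinal neurons, so POU4 factors are known from both hair cells and neurons. Combinations of Atoh1, Pou4f3 and the zinc finger repressor Gfi1 are used to direct cells to a hair cell fate, and the comparison of iP+A with iAtoh1 asks what Pou4f3 changes in the Atoh1 response.

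Values are normalized counts per gene as deposited, after reversing the log2(normalized count + 1) transformation of the deposited table. Estimated from the step between low values, the 8 libraries held 39.69 M to 48.04 M reads. After a filter on low values, 16837 of 19421 genes were tested with limma. A gene was called when its Benjamini-Hochberg adjusted p was below 0.05 and its log2 difference was at least 1.5 in size. With 2 libraries per group, SE values rest on the spread pooled over all 28 libraries.

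The transgenes followed the labels. Atoh1 was at 76.1 and 39.2 normalized counts in iAtoh1 No Dox and at 18996 and 21242 in iAtoh1 Dox. In iP+A it was at 29.6 and 46.7 without Dox and at 14888 and 12816 with Dox. Mean Atoh1 in the Dox groups was 20119 ± 1588 in iAtoh1 and 13852 ± 1465 in iP+A (SD, n = 2), and the 2 groups did not overlap, but the fitted log2 difference between them, -0.54 (SE 0.33, adjusted p = 0.289), did not pass the test. The Dox effect on Atoh1 was 8.50 in iAtoh1 and 8.50 in iP+A on the log2 scale. Transgene and endogenous transcripts of a factor were counted together.

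Pou4f3 was at 20.5 and 13.1 normalized counts in iAtoh1 No Dox and at 18.4 and 23.8 in iP+A No Dox. It was at 12878 and 10868 in iP+A Dox, which carries the transgene. In iAtoh1 Dox, where no Pou4f3 transgene is present, it was at 101 and 62.6, a rise of 2.21 (SE 0.46, adjusted p = 0.00218) on the log2 scale. Gfi1, which neither cassette contains, was at 92 and 49.7 in iAtoh1 Dox and 85.9 and 107 in iP+A Dox, against 55.2 and 68.6 in untreated iAtoh1 and 27.3 and 33 in untreated iP+A. Its difference of Dox effects was 1.51 (SE 0.35, adjusted p = 0.0148), just past the threshold, with -1.01 between the untreated groups and 0.50 between the Dox groups, iP+A minus iAtoh1. The call was lost without any 1 of 4 of the 8 libraries (adjusted p up to 0.0867). An antisense transcript overlaps exons of Gfi1, and counting did not use strand, so reads of the pair cannot be told apart.

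With Pou4f3 added, 352 genes were higher, which is 2.09% of the genes tested, and 116 genes were lower, 0.689%. The median difference over all genes tested was -0.01. Among called genes the median was 2.76 for those higher and -2.10 for those lower. A comparison of the Dox groups alone, which is part of the same difference, called 308 of the 352 higher and 70 of the 116 lower genes, and over all genes it called 581 higher and 212 lower. Among the lower genes the median difference between the untreated groups, iP+A minus iAtoh1, was 0.51, and among the higher genes it was -0.16. Without iAtoh1 Dox replicate 2 the number of lower genes was 75, and with only the 8 libraries of both lines in the fit the numbers were 193 higher and 56 lower. In that fit the calls of 21 of the 77 genes named by the preset rule ended, with adjusted p from 0.0505 to 0.201. They were Adcyap1, Cacng4, Col6a1, Defa24, Gabbr2, Gal, Gfi1, Grxcr2, Insrr, Laptm5, Lhx5, Map2, Ntn5, Otof, Prrxl1, Rag2, Scrt1, Stmn3, Tbx5, Tmem114 and Unc5d.

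Most higher genes were not called in iAtoh1. In the separate Dox effects, 486 genes rose (2.89% of the genes tested) and 424 fell (2.52%) in iAtoh1, and 792 rose (4.7%) and 435 fell (2.58%) in iP+A. Of the 352 higher genes, 252 rose in iP+A and were not called in iAtoh1, with a median Dox effect of 0.01 in iAtoh1 and 3.01 in iP+A. Another 28 rose in both lines, by a median of 2.21 in iAtoh1 and 5.52 in iP+A. The remainder were 23 genes that fell in iAtoh1 and were not called in iP+A, 6 that fell in iAtoh1 and rose in iP+A, and 43 that were called in neither line.

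The lower genes were mainly genes that rose with Atoh1 alone. Of the 116, 65 rose in iAtoh1 and were not called in iP+A, with median Dox effects of 2.38 and 0.06. A further 4 rose in both lines, 12 fell in iP+A and were not called in iAtoh1, and 35 were called in neither.

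**Figure D1:**
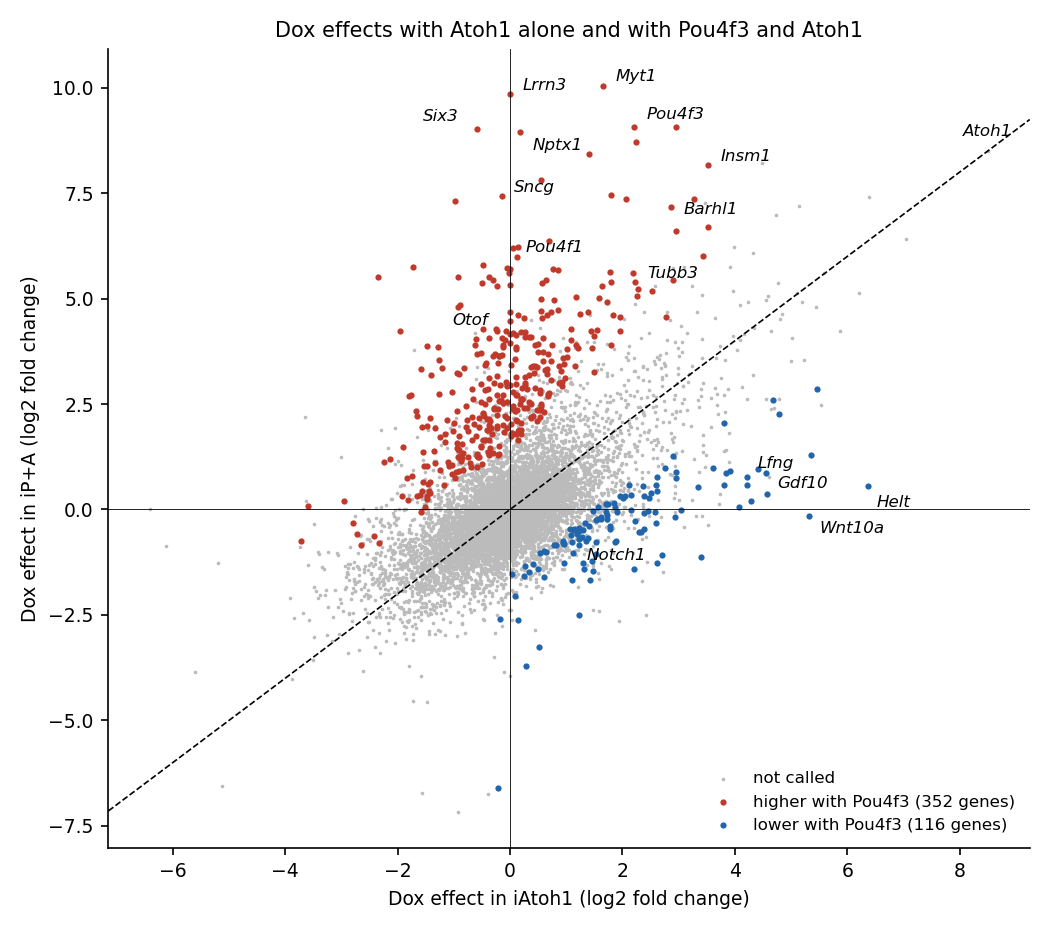
Dox effect (log2 fold change) in iAtoh1 on the horizontal axis against iP+A on the vertical axis for 16837 genes; the dashed line marks equal effects. The 352 red genes lie above the line, mostly near 0 on the horizontal axis, and the 116 blue genes lie below it, mostly to the right of 0; Atoh1 lies on the line.

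Between untreated iP+A and untreated iAtoh1, 0 genes were higher and 4 were lower (0.0238% of the genes tested) by limma, and at an unadjusted p below 0.05 the numbers were 1514 and 1245. The 4 were chosen here after their values were seen. They are Grb10, an imprinted growth adaptor, the Y-linked Eif2s3y, Ntng1, which encodes netrin-G1, and Slc32a1, which encodes the vesicular transporter of inhibitory transmitters. Grb10 was at 42453 and 30621 in iAtoh1 No Dox and at 519 and 654 in iP+A No Dox. Eif2s3y was at 288 and 293 in iAtoh1 No Dox and at 97.7 and 86.4 in iP+A No Dox. Ntng1 and Slc32a1 are also among the 352 higher genes. Slc32a1 was at 304 and 445 in iAtoh1 No Dox, 139 and 127 in iAtoh1 Dox, 107 and 86.4 in iP+A No Dox and 127 and 168 in iP+A Dox. The Dox groups of the 2 lines touched, and the difference of 2.06 lay mostly between the untreated groups. Ntng1 was at 129 and 54.1 in iAtoh1 No Dox, 123 and 67.6 in iAtoh1 Dox, 3.13 and 2.63 in iP+A No Dox and 190 and 313 in iP+A Dox, with a difference of 5.86, while the untreated groups differed by -4.45.

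Promoter sequence is shown for 5 genes described below, chosen because their promoters hold letters of the kind that the expressed classes of factor bind, so that the letters can be read beside the expression values. CAGCTG and CAGATG are E-box letters, of the kind bHLH factors bind, and ATTAAT and TAATTA are AT-rich letters of the kind POU and other homeodomain factors bind. Among all tested genes with a promoter in the RefSeq set (13126, GRCm38.p6, the 250 bases before the start, both strands), 12.6% hold CAGCTG, 10.8% CAGATG, 2.28% ATTAAT and 2.71% TAATTA. Promoters were matched for 261 of the 352 higher and 72 of the 116 lower genes, under 80% of either set, so that no share is compared between sets. Matching letters are in capitals, each sequence runs 5′ to 3′ toward the start of the gene, and ATTAAT and TAATTA overlap in Dcx.
Pou4f1, chr14:104468000-104468249 (- strand): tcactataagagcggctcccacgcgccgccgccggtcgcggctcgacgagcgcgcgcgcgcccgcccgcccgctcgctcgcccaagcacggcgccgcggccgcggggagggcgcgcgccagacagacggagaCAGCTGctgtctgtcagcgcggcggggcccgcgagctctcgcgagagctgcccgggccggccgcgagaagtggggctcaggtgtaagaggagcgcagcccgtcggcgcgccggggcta
Barhl1, chr2:28916669-28916918 (- strand): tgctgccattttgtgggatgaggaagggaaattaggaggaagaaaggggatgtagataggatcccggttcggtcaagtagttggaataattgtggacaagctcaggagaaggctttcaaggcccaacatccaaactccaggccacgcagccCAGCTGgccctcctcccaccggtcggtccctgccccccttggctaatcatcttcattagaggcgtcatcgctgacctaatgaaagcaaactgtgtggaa
Tfap2b, chr1:19211804-19212053 (+ strand): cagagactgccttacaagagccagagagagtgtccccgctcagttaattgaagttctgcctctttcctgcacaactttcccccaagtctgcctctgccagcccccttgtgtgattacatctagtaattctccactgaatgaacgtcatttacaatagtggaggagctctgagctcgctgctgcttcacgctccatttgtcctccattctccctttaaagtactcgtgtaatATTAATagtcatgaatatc
Dcx, chrX:143933220-143933469 (- strand): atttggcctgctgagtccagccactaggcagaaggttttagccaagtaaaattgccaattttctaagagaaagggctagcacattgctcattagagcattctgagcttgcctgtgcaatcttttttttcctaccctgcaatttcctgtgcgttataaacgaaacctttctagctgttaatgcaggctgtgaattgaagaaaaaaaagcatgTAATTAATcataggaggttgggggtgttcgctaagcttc
Lfng, chr5:140607091-140607340 (+ strand): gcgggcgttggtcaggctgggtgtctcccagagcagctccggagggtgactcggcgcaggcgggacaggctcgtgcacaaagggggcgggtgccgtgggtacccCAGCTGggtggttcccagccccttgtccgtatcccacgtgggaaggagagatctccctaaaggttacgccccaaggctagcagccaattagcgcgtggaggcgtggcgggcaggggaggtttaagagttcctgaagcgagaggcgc
The E-box CAGCTG begins 118 bases before the start in Pou4f1, 99 in Barhl1 and 146 in Lfng, ATTAAT begins 19 bases before the start in Tfap2b, and TAATTA and ATTAAT begin 39 and 37 bases before it in Dcx. Pou4f1, Barhl1, Tfap2b and Dcx were higher with Pou4f3 and Lfng was lower. A match describes letters and not a bound site.

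The largest differences were in genes close to silent in embryoid bodies and in iAtoh1 Dox. Lrrn3 (chr12:42178260-42212338, NCBIM37), a leucine-rich repeat membrane protein of neurons, was listed at 0 in all 6 other libraries and at 1003 and 835 normalized counts in iP+A Dox (adjusted p = 7.53e-05). No fold is given against groups at 0. Six3 (chr17:86012948-86031153), a homeobox factor of the forebrain and eye, was at 29.8 and 8.06 in iAtoh1 No Dox, 11 and 9.34 in iAtoh1 Dox, 4.47 and 2.02 in iP+A No Dox and 2202 and 1987 in iP+A Dox. Only iP+A Dox was high, and the difference was 9.59 (SE 1.40, adjusted p = 0.000312). Its antisense neighbour Six3os1, at 10 and 6.43 in iAtoh1 Dox and 787 and 737 in iP+A Dox, overlaps exons of Six3, so the 2 genes are not independent measurements here.

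Nptx1 (chr11:119400033-119409067), a neuronal pentraxin released at synapses, was at 17.6 and 13 in iAtoh1 No Dox, 23.8 and 12.3 in iAtoh1 Dox, 11.2 and 8.27 in iP+A No Dox and 5892 and 4781 in iP+A Dox, a difference of 8.80 (SE 0.65, adjusted p = 1.82e-07). Sncg, the gene of gamma-synuclein, was between 23.7 and 41.8 in the 6 other libraries and at 7800 and 6324 in iP+A Dox, a difference of 7.56 (SE 0.52, adjusted p = 1.57e-07). For both genes iAtoh1 Dox lay at the level of untreated cells.

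Tmem132e, a transmembrane protein, was at 42.8 and 32.9 in iAtoh1 Dox and 3340 and 2905 in iP+A Dox, against 23.5 and 27.4 in untreated iAtoh1 and 16.9 and 9.93 in untreated iP+A, a difference of 7.25 (SE 0.63, adjusted p = 1.07e-06). Gh, which encodes growth hormone, was at 0.976 and 0.818 in iAtoh1 No Dox, 5.47 and 2.85 in iAtoh1 Dox, 1.02 and 0 in iP+A No Dox and 555 and 425 in iP+A Dox, a difference of 7.02 (SE 0.84, adjusted p = 4.48e-05). Tfap2b, an AP-2 transcription factor, was at 16.2 and 6.93 in iAtoh1 No Dox, 1.16 and 1.44 in iAtoh1 Dox, 3.87 and 2.8 in iP+A No Dox and 250 and 153 in iP+A Dox. It fell in iAtoh1 (-2.35) and rose in iP+A (5.52), 1 of the 6 genes called in opposite directions. Paqr9 and Aldh1a7, a receptor of the PAQR family and an aldehyde dehydrogenase, complete the 12 largest, with differences of 7.48 and 6.43. In iP+A Dox, Paqr9 was at 384 and 292 and Aldh1a7 at 217 and 159.

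**Figure D2:**
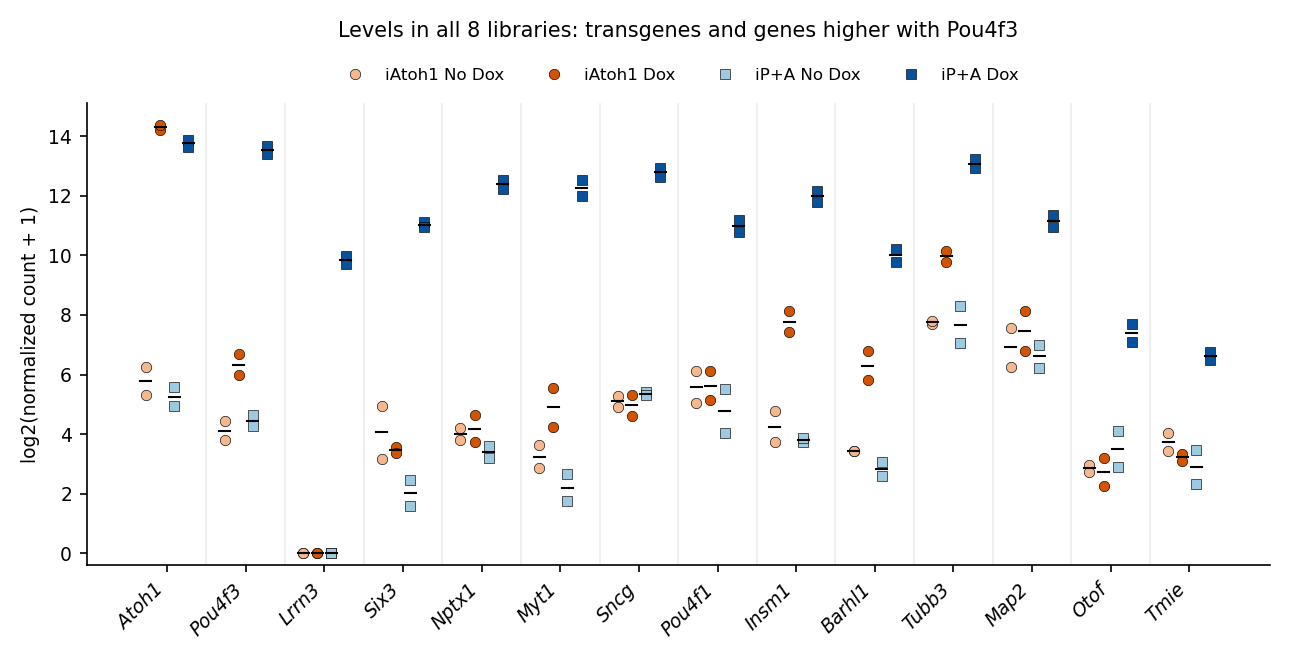
Level of the transgenes and of 12 genes higher with Pou4f3 in each of the 8 libraries, as log2(normalized count + 1); points are libraries and bars are group means. Atoh1 is high in the Dox libraries of both lines, and in every other gene shown the iP+A Dox libraries lie above all 6 others.

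Among 15 POU4F and LIM homeodomain factors, all tested, 3 were higher (20% against 2.09% of all genes) and 0 lower, with a median difference of 1.46, and 1 of the 3 is the transgene Pou4f3. The gene lists here and below were written with earlier results of these data known, so their shares are descriptions only. Pou4f1 (chr14:104862737-104867216), the POU4 factor of sensory neurons, was at 68.4 and 31.8 in iAtoh1 No Dox, 68.5 and 34.1 in iAtoh1 Dox, 15.3 and 45 in iP+A No Dox and 2346 and 1752 in iP+A Dox. The 6 libraries other than iP+A Dox overlapped, and the difference was 6.16 (SE 0.71, adjusted p = 3e-05). Pou4f1 and Pou4f3 are related in sequence, and whether reads were shared was not tested. In iPou4f3 the Dox effect was 9.87 on Pou4f3 and 1.80 on Pou4f1. Lhx5, a LIM factor of the developing brain, was at 10.1 and 4.73 in iAtoh1 Dox and 67 and 94.2 in iP+A Dox, against 23.5 and 4.89 in untreated iAtoh1 and 5.09 and 5.52 in untreated iP+A, a difference of 4.27 (SE 0.93, adjusted p = 0.0091). Lhx3, a LIM factor used in the study as a hair cell marker, was at 0 and 2.34 in iAtoh1 No Dox, 9.14 and 1.35 in iAtoh1 Dox, 1.46 and 0 in iP+A No Dox and 47.9 and 28.8 in iP+A Dox. It rose in iP+A (4.61, SE 0.77, adjusted p = 0.000248), but its difference of 3.19 (SE 1.09, adjusted p = 0.108) did not pass. With 1 of the 8 libraries left out the Lhx3 difference ran from 2.13 to 4.24, and it was 4.24 without iAtoh1 Dox replicate 1. With a pseudocount of 5 it was 2.25 with an adjusted p of 0.0169, but other normalizations, filters and the smaller pseudocount did not call it. The call did not hold for Lhx5 without iAtoh1 No Dox replicate 1 or iAtoh1 Dox replicate 2 (adjusted p = 0.0618 and 0.0542).

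Proneural and neuronal differentiation factors were higher in larger number. Of 23 listed genes 18 were tested, and 6 were higher (33.3% against 2.09% of all genes) and 0 lower, with a median difference of 2.42 and median Dox effects of 1.71 in iAtoh1 and 4.04 in iP+A. Myt1 (chr2:181498037-181562502), a zinc finger factor of newborn neurons, was at 6.22 and 11.4 in iAtoh1 No Dox, 45.4 and 18.1 in iAtoh1 Dox, 5.27 and 2.36 in iP+A No Dox and 5900 and 4037 in iP+A Dox. It rose in both lines, and by 8.40 more in iP+A (SE 0.61, adjusted p = 1.82e-07). Insm1 (chr2:146047657-146050752), a zinc finger repressor of neuroendocrine cells, neurons and outer hair cells, was at 26.4 and 12.2 in iAtoh1 No Dox, 279 and 171 in iAtoh1 Dox, 12.2 and 13.8 in iP+A No Dox and 4579 and 3540 in iP+A Dox. Its Dox effect was 3.53 in iAtoh1 and 8.17 in iP+A, a difference of 4.64 (SE 0.69, adjusted p = 0.000368).

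Scrt1, a Snail-related repressor of differentiating neurons, was at 17.4 and 3.78 in iAtoh1 Dox and 204 and 154 in iP+A Dox, against 6.84 and 8.16 in untreated iAtoh1 and 7.13 and 5.51 in untreated iP+A, a difference of 4.47 (SE 0.78, adjusted p = 0.00159). The other 3, named after their values were seen, were Ebf1 (3.85) and Ebf3 (2.77), which encode early B-cell factors that act in neurons, and Myt1l (3.49), a relative of Myt1. Ebf3 was the most abundant of them, at 815 and 661 in iAtoh1 Dox and 7239 and 6790 in iP+A Dox. The threshold was no longer passed for Myt1l without any 1 of 6 of the 8 libraries (adjusted p up to 0.18). Neurod1, at 54.8 and 54.9 in iAtoh1 Dox and 647 and 437 in iP+A Dox, had a difference of 2.30 (SE 0.86, adjusted p = 0.148) and was not called.

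Factors known to follow Atoh1 in neurons gave 1 higher gene of 14 tested (7.14% against 2.09% of all genes), with a median difference of 0.36. Barhl1 (chr2:28763199-28772188), a homeobox factor of Atoh1-derived neurons and of hair cells, was at 9.78 and 9.79 in iAtoh1 No Dox, 109 and 54.9 in iAtoh1 Dox, 5.09 and 7.36 in iP+A No Dox and 1173 and 885 in iP+A Dox. It rose in both lines and the difference was 4.30 (SE 0.67, adjusted p = 0.000627). Barhl2, its relative and a neuronal marker of the study, was at 7.82 and 2.45 in iAtoh1 No Dox, 97.8 and 36.9 in iAtoh1 Dox, 2.04 and 4.6 in iP+A No Dox and 743 and 533 in iP+A Dox. The iP+A Dox libraries were the highest for Barhl2 too, but the difference of 3.78 (SE 1.53, adjusted p = 0.187) did not pass, with a larger SE than that of Barhl1. With a pseudocount of 5 the Barhl2 difference was 3.52 with an adjusted p of 0.0127, but other normalizations, filters and the smaller pseudocount did not call it. With 1 of the 8 libraries left out it ran from 3.09 to 4.48. Hes6, a bHLH gene of differentiating neurons named after its values were seen, had Dox effects of 3.74 in iAtoh1 and 3.87 in iP+A, a difference of 0.13 (SE 0.28, adjusted p = 0.864).

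General neuronal genes formed the largest called group. Of 45 listed genes, all tested, 17 were higher and 0 lower (37.8% against 2.09% of all genes), with a median difference of 1.90 against -0.01 over all genes. Their median Dox effect was 0.41 in iAtoh1 and 2.30 in iP+A. In iAtoh1 6 rose and 1 fell (2.89% and 2.52% of all genes did). In iP+A 28 rose and 0 fell (4.7% and 2.58% of all genes). The summed level of the 45 genes was 14139 to 15438 normalized counts in iAtoh1 No Dox and 16781 to 18026 in iP+A No Dox. It was 20214 to 22597 in iAtoh1 Dox and 59576 to 74880 in iP+A Dox.

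Among them, Tubb3, the neuronal beta-tubulin, was at 205 and 223 in iAtoh1 No Dox, 1142 and 870 in iAtoh1 Dox, 132 and 312 in iP+A No Dox and 9649 and 7735 in iP+A Dox, a difference of 3.19 (SE 0.51, adjusted p = 0.000705). Dcx, doublecortin, was at 86.9 and 56.7 in iAtoh1 Dox and 458 and 440 in iP+A Dox, against 11.7 and 16.3 in untreated iAtoh1 and 13.2 and 12 in untreated iP+A, a difference of 2.79 (SE 0.63, adjusted p = 0.0112). Both of these neuronal markers of the study rose in iAtoh1 and more in iP+A. In bulk libraries, more cells of a type and more RNA per cell cannot be told apart.

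Some other genes of the group were not called in iAtoh1. Scg3, a secretogranin of dense-core vesicles, was at 16.5 and 10.4 in iAtoh1 Dox and 496 and 319 in iP+A Dox, with 5.87 and 12.2 in untreated iAtoh1 and 9.15 and 8.28 in untreated iP+A, a difference of 4.80 (SE 0.61, adjusted p = 7.16e-05). Map2, a dendritic microtubule protein, was at 189 and 75.1 in iAtoh1 No Dox, 282 and 109 in iAtoh1 Dox, 73.8 and 126 in iP+A No Dox and 2589 and 1985 in iP+A Dox, a difference of 3.98 (SE 0.62, adjusted p = 0.00059). Stmn3, a stathmin, was at 23.8 and 7.57 in iAtoh1 Dox and 394 and 221 in iP+A Dox, a difference of 4.13 (SE 0.99, adjusted p = 0.0177). The iP+A Dox libraries did not overlap any other group for these 3 genes. The call was lost for Dcx without iAtoh1 Dox replicate 2 (adjusted p = 0.0603) and Stmn3 without any 1 of 4 of the 8 libraries (adjusted p up to 0.099).

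Of 35 listed sensory neuron genes 31 were tested, 3 were higher (9.68% against 2.09% of all genes) and 1 lower (3.23% against 0.689% of all genes), and the median difference was 0.60. Ntrk2, the TrkB receptor of BDNF, was at 69.3 and 60.5 in iAtoh1 No Dox, 41.8 and 27.9 in iAtoh1 Dox, 84.4 and 121 in iP+A No Dox and 1020 and 891 in iP+A Dox, a difference of 4.12 (SE 0.83, adjusted p = 0.00514).

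Prrxl1, a homeobox factor of somatosensory neurons, was at 51.1 and 35.2 in iAtoh1 Dox and 667 and 511 in iP+A Dox, a difference of 3.66 (SE 0.99, adjusted p = 0.0356). The third higher gene was Pou4f1, given above. The call did not hold for Prrxl1 without any 1 of 6 of the 8 libraries (adjusted p up to 0.17). Bdnf, the ligand of TrkB, listed here with hair cell synapse genes, had a difference of 2.32 (SE 0.49, adjusted p = 0.00718) and was at 30.4 and 24.7 in iAtoh1 Dox and 154 and 149 in iP+A Dox.

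Hair cell genes were called higher in part, mostly from low levels. Of the 6 hair cell markers named in the study, 1 was higher (16.7% against 2.09% of all genes) and 0 lower, and their median difference was 0.57. Otof, which encodes otoferlin, the calcium sensor of hair cell transmitter release, was at 6.84 and 5.71 in iAtoh1 No Dox, 8.23 and 3.78 in iAtoh1 Dox, 16.3 and 6.44 in iP+A No Dox and 205 and 136 in iP+A Dox, a difference of 4.01 (SE 0.68, adjusted p = 0.00125). Myo7a and Myo6, the unconventional myosins VIIa and VI, had differences of -0.21 (SE 0.18, adjusted p = 0.605) and 0.33 (SE 0.28, adjusted p = 0.597). Espn, espin, and Cdh23, cadherin 23 of the tip link, had differences of 0.80 (SE 0.50, adjusted p = 0.447) and -0.07 (SE 0.82, adjusted p = 0.978). Cdh23 was between 23669 and 35726 in every library, untreated ones included.

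Of 34 hair bundle and mechanotransduction genes 31 were tested, and 8 were higher and 0 lower (25.8% against 2.09% of all genes), with a median difference of 0.59. The list's median Dox effect was -0.06 in iAtoh1 and 0.58 in iP+A. In iAtoh1 0 rose (2.89% of all genes did), and in iP+A 9 rose (4.7% of all genes). Tmie, a subunit of the mechanotransduction channel complex, was at 9.14 and 7.57 in iAtoh1 Dox and 106 and 89.4 in iP+A Dox, against 15.6 and 9.79 in untreated iAtoh1 and 4.07 and 10.1 in untreated iP+A, a difference of 4.23 (SE 0.62, adjusted p = 0.000329). Als2cl overlaps an exon of Tmie on the other strand. Ush1g, the Usher protein Sans, was at 0.977 and 1.63 in iAtoh1 No Dox, 7.31 and 6.62 in iAtoh1 Dox, 3.05 and 5.52 in iP+A No Dox and 223 and 207 in iP+A Dox, a difference of 3.59 (SE 0.97, adjusted p = 0.0356). Grxcr2, a stereocilia base protein, reached 16.3 and 13.5 in iP+A Dox and was at most 1.89 in the 6 other libraries of both lines, a difference of 3.90 (SE 0.85, adjusted p = 0.00887).

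The other 5 called bundle genes, named after their values were seen, were Ptprq (3.14), Ush1c (2.87), Myo3b (2.22), Eps8l2 (1.87) and Myo15 (1.75). Myo15, the stereocilia-tip myosin XV, was at 345 and 351 in iAtoh1 No Dox, 176 and 134 in iAtoh1 Dox, 190 and 239 in iP+A No Dox and 354 and 287 in iP+A Dox. The difference of Myo15 thus joined a lower level in iAtoh1 Dox to a level in iP+A Dox near that of untreated iAtoh1, and neither Dox effect was called (-1.17 and 0.58). The summed level of all 31 genes, which Cdh23 dominates, was 49253 to 52206 in iAtoh1 Dox and 43480 to 51787 in iP+A Dox, against 46425 to 53501 in untreated iAtoh1 and 45954 to 46152 in untreated iP+A. The threshold was no longer passed for Ush1g without any 1 of 7 of the 8 libraries (adjusted p up to 0.125), Grxcr2 without iAtoh1 Dox replicate 1 (adjusted p = 0.0555), Myo3b without any 1 of 3 of the 8 libraries (adjusted p up to 0.066), Eps8l2 without any 1 of 5 of the 8 libraries (adjusted p up to 0.117) and Myo15 without any 1 of 3 of the 8 libraries (adjusted p up to 0.0615).

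Of 15 tested genes of hair cell synapse, channels and calcium handling, 4 were higher (26.7% against 2.09% of all genes) and 0 lower, with a median difference of 0.67. Besides Otof and Bdnf these were Cabp2, a calcium-binding protein of the hair cell synapse, and Atp2b2, the plasma membrane calcium pump of the hair bundle. Cabp2 was at most 5.41 in the 6 other libraries and at 40.1 and 39 in iP+A Dox, a difference of 4.54 (SE 1.07, adjusted p = 0.0152). Atp2b2 was at 59.7 and 62.8 in iAtoh1 Dox and 645 and 448 in iP+A Dox, against 32.5 and 30.4 in untreated iAtoh1 and 44.5 and 43 in untreated iP+A, a difference of 2.65 (SE 0.50, adjusted p = 0.00306). The call was lost for Cabp2 without iAtoh1 No Dox replicate 1 or iP+A Dox replicate 1 (adjusted p = 0.0702 and 0.0566).

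Of 27 otic and hair cell transcription factors, all tested, 6 were higher (22.2% against 2.09% of all genes) and 0 lower, but the median difference was 0.02. They were the transgene Pou4f3, whose rise the design fixes, Insm1, Barhl1 and Gfi1, given above, and Eya4 (2.61) and Six2 (1.90), named after their values were seen. Eya4, a transcriptional coactivator of the otic placode, was at 162 and 54 in iAtoh1 No Dox, 192 and 187 in iAtoh1 Dox, 66 and 94.7 in iP+A No Dox and 997 and 969 in iP+A Dox. Six2 was at 166 and 149 in iAtoh1 No Dox, 48.4 and 66.3 in iAtoh1 Dox, 144 and 181 in iP+A No Dox and 190 and 254 in iP+A Dox, so that its difference came with a Dox effect of -1.45 in iAtoh1 rather than with a rise in iP+A. The call did not hold for Eya4 without any 1 of 3 of the 8 libraries (adjusted p up to 0.08) and Six2 without any 1 of 4 of the 8 libraries (adjusted p up to 0.0843).

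Of the 10 largest negative differences, 8 were in genes that rose in iAtoh1 and were not called in iP+A. Helt (chr8:47377404-47380025), a bHLH-Orange repressor related to the Hes and Hey factors, was at 2.39 and 0.638 normalized counts in iAtoh1 No Dox and 280 and 135 in iAtoh1 Dox. It was listed at 0 and 0 in iP+A No Dox and at 0 and 1.18 in iP+A Dox, and the difference passed the test with an adjusted p of 0.0078. No fold is given against a group at 0. Wnt10a, a Wnt ligand, was at 0.977 and 1.63 in iAtoh1 No Dox, 108 and 73.8 in iAtoh1 Dox, 6.11 and 2.76 in iP+A No Dox and 4.53 and 2.88 in iP+A Dox, a difference of -5.46 (SE 1.01, adjusted p = 0.00274). For both genes iAtoh1 Dox alone was high.

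Gdf10 (chr14:34736773-34749700), a secreted member of the TGF-beta family, was at 19.5 and 15.5 in iAtoh1 No Dox, 358 and 528 in iAtoh1 Dox, 30.5 and 24.8 in iP+A No Dox and 37.1 and 34.6 in iP+A Dox, a difference of -4.20 (SE 0.58, adjusted p = 0.000185). Insrr, the insulin receptor-related receptor, was at 343 and 206 in iAtoh1 Dox and 36.2 and 19.2 in iP+A Dox, against 22.5 and 9.79 in untreated iAtoh1 and 19.3 and 33.1 in untreated iP+A, a difference of -4.01 (SE 0.83, adjusted p = 0.00618). Itga7, a laminin-binding integrin of muscle, was at 71.5 and 73.7 in iAtoh1 No Dox, 428 and 471 in iAtoh1 Dox, 113 and 139 in iP+A No Dox and 50 and 53.1 in iP+A Dox, a difference of -3.88 (SE 0.65, adjusted p = 0.00114). Its level in iP+A Dox lay below both untreated groups, although the Dox effect of -1.26 there was not called, and Mettl7b overlaps an exon of Itga7 on the other strand.

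Of the rest of the 10 largest, Tbata reached 78.8 and 88.7 and Tmem114 19.2 and 15.1 in iAtoh1 Dox, with differences of -4.07 and -4.52. Defa24, listed at 0 in untreated iAtoh1, reached 34.7 and 9.55 in iAtoh1 Dox (adjusted p = 0.0112). Ntn5 and Rag2 differed in kind, since they were listed at 0 in both iP+A Dox libraries and were at most 13.2 and 17.5 in the others, with adjusted p of 0.0174 and 0.0293. Ntn5 and Rag2 each overlap exons of a gene on the other strand, and Defa24 belongs to a family of near-identical genes, so these 3 values are uncertain. The threshold was no longer passed for Defa24 without any 1 of 3 of the 8 libraries (adjusted p up to 0.0762), Tmem114 without any 1 of 4 of the 8 libraries (adjusted p up to 0.081), Ntn5 without any 1 of 5 of the 8 libraries (adjusted p up to 0.102) and Rag2 without any 1 of 5 of the 8 libraries (adjusted p up to 0.127). Rex2 had the lowest difference of all. It was left out of the named genes because it was listed at 0 in the untreated iGPA libraries and above 50 in untreated libraries of other lines. In iP+A Dox it was listed at 0, and in iAtoh1 Dox it was at 84.1 and 97.4.

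**Figure D3:**
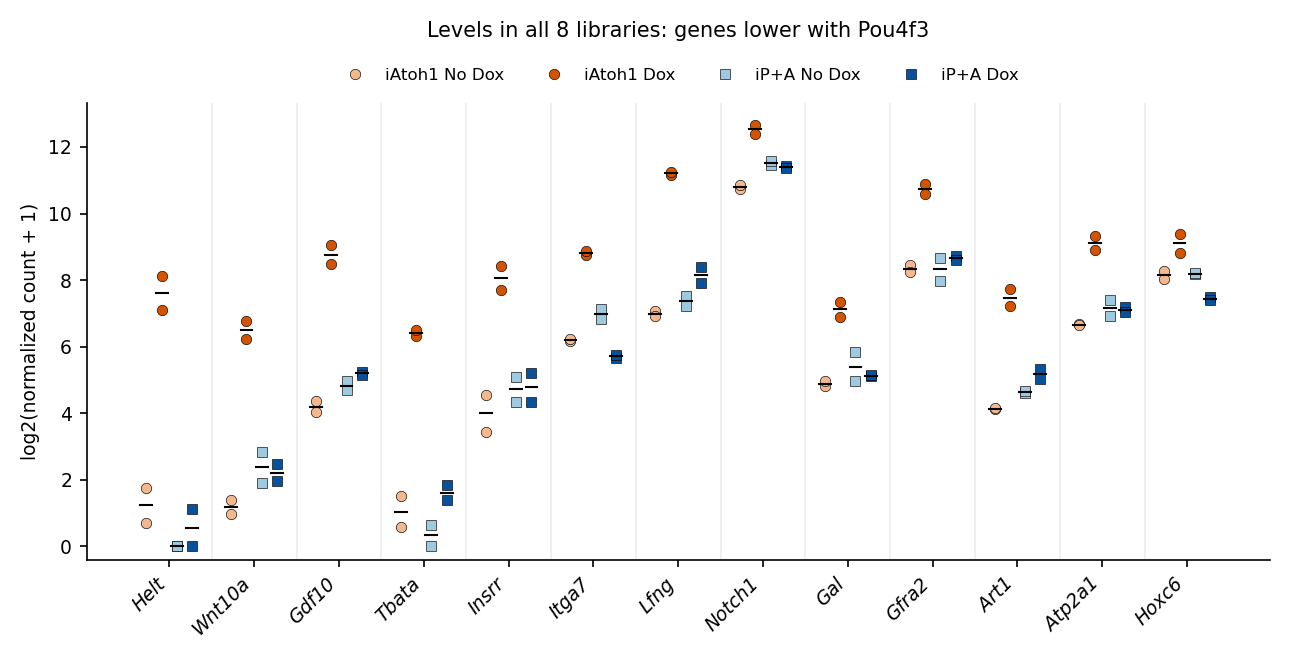
Level of 13 genes lower with Pou4f3 in each of the 8 libraries, as log2(normalized count + 1); points are libraries and bars are group means. In every gene shown the iAtoh1 Dox libraries (dark circles) lie above both iP+A Dox libraries (dark squares).

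Notch pathway genes included 2 lower (7.41% against 0.689% of all genes) and 0 higher of 27 tested, with a median difference of -0.28. Notch signalling passes between neighbouring cells and restrains hair cell and neuronal differentiation in the ear and nervous system. Lfng (chr5:141083295-141091497), the fringe glycosyltransferase that modifies Notch receptors, was at 133 and 120 in iAtoh1 No Dox, 2283 and 2450 in iAtoh1 Dox, 182 and 149 in iP+A No Dox and 334 and 241 in iP+A Dox. Its Dox effect was 4.22 in iAtoh1 and 0.78 in iP+A, and the difference was -3.44 (SE 0.54, adjusted p = 0.000581). Notch1, the receptor, was at 1721 and 1871 in iAtoh1 No Dox, 6542 and 5390 in iAtoh1 Dox, 2794 and 3048 in iP+A No Dox and 2729 and 2650 in iP+A Dox, a difference of -1.84 (SE 0.38, adjusted p = 0.00647). Part of the Notch1 difference, 0.70, lay between the untreated groups, and 2 antisense genes overlap its exons. The ligand Dll1, named after its values were seen, was at 2004 and 970 in iAtoh1 Dox and 487 and 433 in iP+A Dox, and its difference of -1.68 (SE 0.81, adjusted p = 0.286) did not pass.

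Among genes named after their values were seen, muscle genes recurred in the lower set. Of 30 skeletal muscle genes listed after the results were known, 27 were tested, and 9 were lower and 0 higher, with a median difference of -1.25, where 0.689% of all genes were lower. The list was drawn up from these results and supports nothing by itself. In iAtoh1 10 of the 27 rose (2.89% of all genes did), and in iP+A 1 did (4.7% of all genes). Art1, an ADP-ribosyltransferase of muscle, was at 16.5 and 16.7 in iAtoh1 No Dox, 210 and 148 in iAtoh1 Dox, 23.6 and 24.2 in iP+A No Dox and 39.1 and 31.4 in iP+A Dox, a difference of -2.80 (SE 0.40, adjusted p = 0.000227). Atp2a1, the calcium pump of fast muscle, was at 102 and 98.7 in iAtoh1 No Dox, 476 and 637 in iAtoh1 Dox, 167 and 120 in iP+A No Dox and 144 and 131 in iP+A Dox, a difference of -2.49 (SE 0.37, adjusted p = 0.000396). For both, iAtoh1 Dox alone stood apart. Myod1, the myogenic bHLH factor and 1 of the 9, reached 6.39 and 4.74 in iAtoh1 Dox and was listed at 0 in untreated iAtoh1. It was at 2.04 and 1.83 in iP+A No Dox and 0 and 0.959 in iP+A Dox. For Des and Sgca the untreated groups differed by 1.06 and 1.03, iP+A minus iAtoh1, and the Dox groups by -0.76 and -0.77. Their differences of -1.81 and -1.80 thus lay mostly between the untreated groups. The call was lost for Cdh15 without any 1 of 5 of the 8 libraries (adjusted p up to 0.1), Des without any 1 of 5 of the 8 libraries (adjusted p up to 0.242), Sgca without any 1 of 4 of the 8 libraries (adjusted p up to 0.116), Tnnt3 without any 1 of 3 of the 8 libraries (adjusted p up to 0.0641), Mybph without iAtoh1 Dox replicate 2 or iP+A No Dox replicate 1 (adjusted p = 0.0586 and 0.0536) and Myod1 without iP+A Dox replicate 1 (adjusted p = 0.0516). Myog, Acta1 and Ckm, of differentiated muscle, were not called, with differences of -1.21, -0.73 and 0.08.

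Neuropeptides, channels, transmitter genes and guidance genes moved in both directions or in few members. Of 17 tested neuropeptide genes 2 were higher (11.8% against 2.09% of all genes) and 1 lower (5.88% against 0.689% of all genes), with a median difference of 0.60. Adcyap1, the gene of PACAP, was at most 2.45 in the 6 other libraries and at 58 and 31.7 in iP+A Dox (4.52, SE 0.91, adjusted p = 0.00514), and Cartpt, listed at 0 in 6 libraries, was at 14.5 and 14.4 in iP+A Dox (adjusted p = 0.0307). With the replicate number of each line as a block, the adjusted p of Cartpt was 0.0608. Gal, galanin, was at 27.3 and 30.2 in iAtoh1 No Dox, 162 and 118 in iAtoh1 Dox, 56 and 30.3 in iP+A No Dox and 33.5 and 34.6 in iP+A Dox and was high in iAtoh1 Dox alone, a difference of -2.50 (SE 0.63, adjusted p = 0.023). The call did not hold for Cartpt without any 1 of the 8 libraries (adjusted p up to 0.0964) and Gal without any 1 of 5 of the 8 libraries (adjusted p up to 0.113).

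Of 28 voltage-gated sodium and calcium channel genes, all tested, 3 were higher (10.7% against 2.09% of all genes) and 2 lower (7.14% against 0.689% of all genes), with a median difference of 0.45. The higher genes were calcium channel subunits. Cacna1b, the N-type pore subunit, was at 72 and 65.1 in iAtoh1 Dox and 550 and 423 in iP+A Dox, against 194 and 137 in untreated iAtoh1 and 100 and 213 in untreated iP+A (2.96, SE 0.47, adjusted p = 0.000663). Cacna2d2, an auxiliary subunit, was at 705 and 704 in iAtoh1 No Dox, 733 and 801 in iAtoh1 Dox, 351 and 399 in iP+A No Dox and 2605 and 2342 in iP+A Dox (2.60, SE 0.25, adjusted p = 5.33e-06), and Cacng4 had a difference of 2.69. Gm17141 overlaps an exon of Cacna2d2 on the other strand. Cacna1g, a T-type calcium channel named after its values were seen, was lower (-1.85). The threshold was no longer passed for Cacng4 without any 1 of 4 of the 8 libraries (adjusted p up to 0.101) and Cacna1g without iP+A No Dox replicate 1, where its log2 difference was -1.43.

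Of 37 tested transmitter receptors and transporters 4 were higher (10.8% against 2.09% of all genes) and 0 lower, with a median difference of 0.47. Slc18a2, the vesicular monoamine transporter, was at 1713 and 1931 in iAtoh1 No Dox, 2605 and 3166 in iAtoh1 Dox, 1311 and 1210 in iP+A No Dox and 12708 and 10629 in iP+A Dox, a difference of 2.55 (SE 0.37, adjusted p = 0.000271). Chrnb2, a nicotinic receptor subunit, and Gabbr2, a GABA-B receptor subunit, had differences of 2.30 (SE 0.31, adjusted p = 0.000127) and 2.87 (SE 0.71, adjusted p = 0.0212). The fourth, Slc32a1, is the gene given above whose difference lay mostly between untreated groups. The call was lost for Gabbr2 without any 1 of 5 of the 8 libraries (adjusted p up to 0.0943).

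Of 50 axon guidance ligands and receptors, all tested, 1 was higher (2% against 2.09% of all genes) and 1 lower (2% against 0.689% of all genes), and the median difference was -0.07. The share of higher genes was at that of all genes. Unc5d, a netrin receptor, was at 295 and 219 in iAtoh1 Dox and 1473 and 1115 in iP+A Dox, against 49.9 and 22 in untreated iAtoh1 and 21.4 and 37.7 in untreated iP+A, a difference of 2.54 (SE 0.59, adjusted p = 0.0146). Gfra2, the neurturin receptor, was at 349 and 301 in iAtoh1 No Dox, 1876 and 1532 in iAtoh1 Dox, 251 and 407 in iP+A No Dox and 421 and 385 in iP+A Dox, a difference of -2.05 (SE 0.45, adjusted p = 0.0092), and was high in iAtoh1 Dox alone. The call did not hold for Unc5d without any 1 of 4 of the 8 libraries (adjusted p up to 0.0884).

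Hox genes, the positional homeobox genes of the body axis, showed 1 lower (2.78% against 0.689% of all genes) and 0 higher of 36 tested. Their median difference was -1.17, the lowest of the 28 lists apart from the muscle list added later, and 33 of 36 differences were below 0. The median Dox effect was 0.78 in iAtoh1 and -0.43 in iP+A. The summed level was 14870 to 15342 in iAtoh1 Dox, 9626 to 10355 in iP+A Dox, 8122 to 9132 in iAtoh1 No Dox and 8857 to 10949 in iP+A No Dox. Hoxc6, the called gene, was at 308 and 263 in iAtoh1 No Dox, 667 and 452 in iAtoh1 Dox, 290 and 293 in iP+A No Dox and 180 and 167 in iP+A Dox, a difference of -1.69 (SE 0.38, adjusted p = 0.0117). The threshold was no longer passed for Hoxc6 without iAtoh1 Dox replicate 1 (adjusted p = 0.0701). Neighbouring Hox genes share their chromosomal domains and were not independent measurements.

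Of 25 cell cycle genes and 7 CDK inhibitors, limma called 0 (0 and 1 at an unadjusted p below 0.05), with median differences of -0.06 and 0.0004, and the members of largest difference were Ccnd2 (-0.55, SE 0.62, adjusted p = 0.719) and Cdkn1a (-0.93, SE 0.28, adjusted p = 0.0609). Of 16 BMP targets and Id genes limma called 0 (2 at an unadjusted p below 0.05), with a median of -0.40 and Bmp7 at -0.80 (SE 0.55, adjusted p = 0.503). Of 18 pluripotency genes limma called 0 (0 at an unadjusted p below 0.05), with a median of -0.66 and Klf4 at -1.16 (SE 0.70, adjusted p = 0.425). Within the lines the median Dox effect of the pluripotency genes was -1.79 in iAtoh1 and -2.38 in iP+A. Only 1 of the 18 pluripotency differences and 0 of the 16 BMP and Id differences were above 0. Over all genes 2.09% were higher and 0.689% lower. In lists of this size, here and below, 0 calls lie near those shares and do not show that a list was unchanged.

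Among markers of other cell types of an embryoid body, blood genes had a median difference of 1.03 with 1 higher, Cd34 (4.76% against 2.09% of all genes), and 1 lower, Laptm5 (4.76% against 0.689% of all genes), of 21 tested, and their summed level was 21859 to 24696 in iAtoh1 Dox and 17132 to 37482 in iP+A Dox, against 202301 to 222160 and 114806 to 132856 without Dox. Hbb-bs, a beta-globin gene among the 352 and named after its values were seen, was at 4265 and 4089 in iAtoh1 No Dox, 530 and 227 in iAtoh1 Dox, 2089 and 2152 in iP+A No Dox and 1550 and 3265 in iP+A Dox, so that its difference of 3.67 came with a fall in iAtoh1 (-3.59). The part of blood cells in the higher genes that fell in iAtoh1 was not tested. Cd34, also an endothelial and progenitor marker, had a difference of 2.41 (SE 0.52, adjusted p = 0.00876), and Laptm5 one of -1.95 (SE 0.49, adjusted p = 0.0234). Gm16897 overlaps an exon of Cd34 on the other strand.

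Mesenchyme and fibroblast genes had 2 higher, Thy1 (4.47) and Col5a2 (3.36), and 1 lower, Col6a1 (-1.82), of 18 tested. The share higher was 11.1% against 2.09% of all genes and the share lower 5.56% against 0.689% of all genes, with a median of 0.02 and summed levels of 55284 to 76432 in iAtoh1 Dox and 85334 to 104281 in iP+A Dox, against 81346 to 137123 in untreated iAtoh1 and 146899 to 231884 in untreated iP+A. Thy1 is also a surface protein of neurons. Cardiac genes had 1 lower of 15 (6.67% against 0.689% of all genes), Tbx5 (-2.47, SE 0.70, adjusted p = 0.0446), and a median of -0.19. Of 20 endothelial and 17 endoderm and epithelial genes limma called 0 (2 and 2 at an unadjusted p below 0.05), with medians of 0.15 and 0.80 and largest differences in Vwf (1.13, SE 0.58, adjusted p = 0.325) and Apob (2.35, SE 1.07, adjusted p = 0.252). The call was lost for Laptm5 without any 1 of 4 of the 8 libraries (adjusted p up to 0.12), Col5a2 without any 1 of the 8 libraries (adjusted p up to 0.118), Col6a1 without any 1 of 5 of the 8 libraries (adjusted p up to 0.2) and Tbx5 without any 1 of 4 of the 8 libraries (adjusted p up to 0.208).

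Of 20 dissociation stress genes limma called 0 (1 at an unadjusted p below 0.05), with a median of -0.28 and Hspa1a, which an opposite-strand gene overlaps, at -1.04 (SE 1.07, adjusted p = 0.689). Of 4 tested Y-linked genes limma called 0 (1 at an unadjusted p below 0.05), since none reached the size threshold, and Uty had a difference of -1.15 (SE 0.32, adjusted p = 0.0434). Of 21 tested clustered protocadherins limma called 0 (3 at an unadjusted p below 0.05). Pcdhga7 was at 138 and 445 in iAtoh1 Dox and 0 and 10.6 in iP+A Dox, against 267 and 398 in untreated iAtoh1 and 397 and 330 in untreated iP+A, and its difference of -6.35 (SE 2.13, adjusted p = 0.0982) did not pass. Over all genes, 2995 had an unadjusted p below 0.05.

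**Figure D4:**
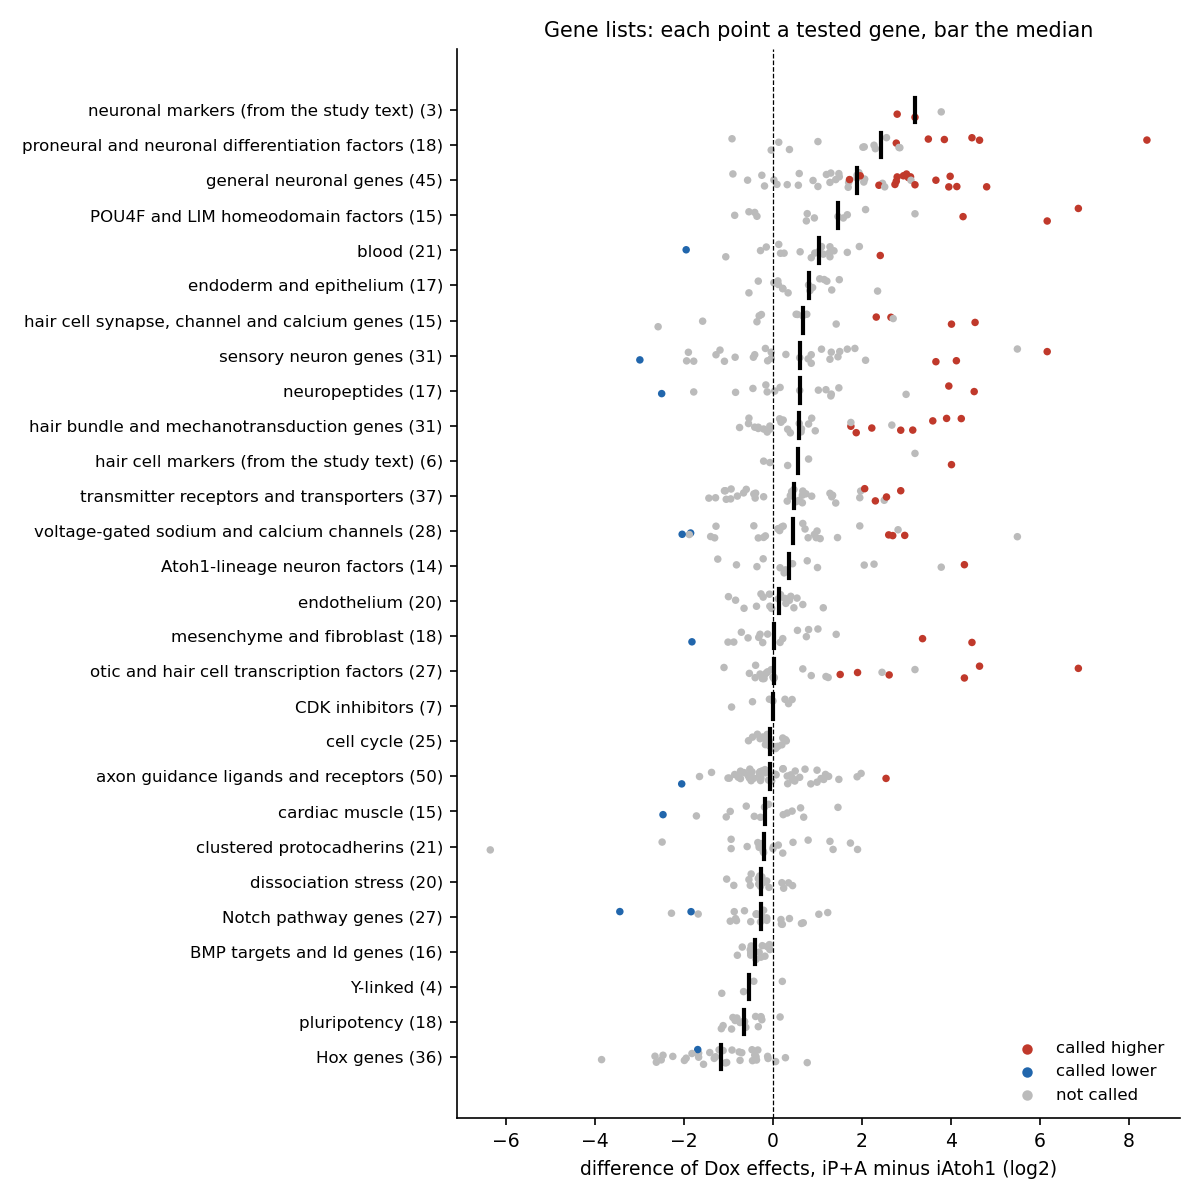
Difference of Dox effects (iP+A minus iAtoh1, log2) of each tested gene in 28 lists, ordered by the median (black bar), with the number tested in brackets; red genes were called higher, blue lower and grey not called, and the dashed line is the median of all genes. Neuronal and proneural lists lie to the right, and Hox genes furthest to the left.

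Pou4f3 could be read in 3 further settings that share no library with iP+A and iAtoh1 or with each other. These were the Dox effect in iPou4f3, the Dox effect in iG+P (Gfi1 and Pou4f3) minus that in iGfi1, and the Dox effect in iGPA (all 3 factors) minus that in iG+A (Gfi1 and Atoh1). The first has no line subtracted, so that Dox exposure and sorting remain joined to Pou4f3 in it. Of the 352 higher genes, 124 (35.2%) rose in iPou4f3, 112 (31.8%) were higher with Pou4f3 added to Gfi1, and 132 (37.5%) were higher with Pou4f3 added to Gfi1 and Atoh1. Over all genes tested the shares were 1.47%, 1.42% and 1.6%. The median log2 difference of the 352 genes was 1.14, 1.20 and 1.46 in the 3 settings, and 317, 296 and 315 of them were above 0.

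In all 3 further settings 49 of the 352 (13.9%) were called up, against 62 of all 16837 genes (0.368%), among them Lrrn3, Nptx1, Myt1, Sncg, Gh, Otof, Grxcr2, Ush1g and Dcx. Sncg had a log2 difference of 7.56 with Atoh1, 6.86 in iPou4f3, 8.39 with Gfi1 and 7.26 with Gfi1 and Atoh1. Otof had 4.01, 4.90, 5.94 and 4.46 in the same order. In none of the 3 were 140 of the 352 (39.8%) called up, against 16307 of all genes (96.9%), among them Six3, Scg3, Thy1, Scrt1, Stmn3, Map2, Cacna1b and Chrnb2. Scg3 had 4.80, 0.08, -0.94 and 1.82.

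A test of the contrast with iPou4f3 itself, added after the results were known, called 39 genes higher (0.232% of the genes tested) and 32 lower (0.19%) with Pou4f3 added to Atoh1 than in iPou4f3. Since the contrast contains the difference that chose the genes, 36 of the former being among the 352 and 20 of the latter among the 116 is a description only. Dox exposure and sorting stay in the iPou4f3 effect, so in these calls they cannot be told apart from Pou4f3. The same test against the addition to Gfi1 and Atoh1 called 60 genes higher (0.356%) and 30 lower (0.178%). Genes of the preset rule higher than in iPou4f3 were Six3, Six3os1, Scrt1, Scg3, Pou4f1, Tmem132e, Cacna1b and Chrnb2. For Scrt1 the 2 effects differed by 4.75 (SE 0.95, adjusted p = 0.0265) and for Chrnb2 by 2.44 (SE 0.38, adjusted p = 0.00469). For Nptx1, where iPou4f3 gave 7.67, the 2 effects differed by 1.13 (SE 0.79, adjusted p = 0.622).

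Of the 116, 3 fell in iPou4f3 (2.59%, against 0.606% of all genes), 6 were lower with Pou4f3 added to Gfi1 (5.17% against 0.428%) and 12 with Pou4f3 added to Gfi1 and Atoh1 (10.3% against 0.6%). Their median difference was -0.37, -0.22 and -0.46. Lfng had -3.44 with Atoh1 and -0.13 with Gfi1 and Atoh1, and these differed by -3.31 (SE 0.76, adjusted p = 0.0484). Gdf10 was lower in both settings with Atoh1, at -4.20 and -2.12. Hoxc6 was lower with Pou4f3 added to Gfi1 (-2.87) and to Gfi1 and Atoh1 (-1.60), and the median of the 36 Hox genes in the latter was -1.15.

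**Figure D5:**
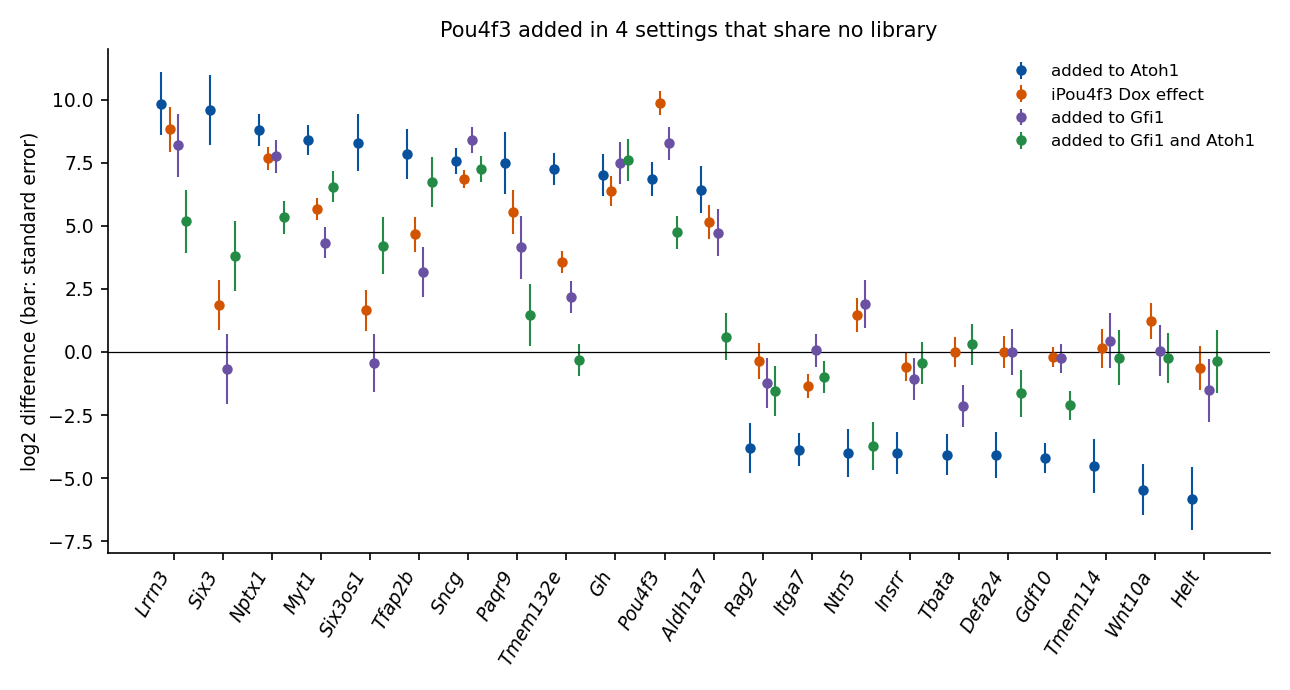
Log2 difference with its standard error for the 12 largest positive and 10 largest negative named genes when Pou4f3 is added to Atoh1, alone (iPou4f3 Dox effect), to Gfi1, and to Gfi1 and Atoh1; no library is shared between settings. Sncg and Gh are high in all 4 settings, Six3 is highest when Pou4f3 is added to Atoh1, and Helt and Wnt10a lie between -1.52 and 1.23 outside the Atoh1 setting.

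Across all 16837 genes, the difference described here and the Dox effect in iPou4f3 had a Pearson r of 0.436 and a Spearman rho of 0.289. Against the addition to Gfi1 the values were 0.345 and 0.228, and against the addition to Gfi1 and Atoh1 0.322 and 0.151. These are across genes, which are not independent replicates, and all settings share the same normalization. The members nearest the size threshold were Glt28d2 and Egflam at 1.51 and 1.51 and Tex26 and Pde9a at -1.51 and -1.51 inside it, with Tmem169, Piezo2 and Inava just outside, Inava at -1.49. The call did not hold for Glt28d2 without any 1 of 5 of the 8 libraries (adjusted p up to 0.0893), Egflam without any 1 of 5 of the 8 libraries (adjusted p up to 0.154), Tex26 without any 1 of 6 of the 8 libraries (adjusted p up to 0.126) and Pde9a without any 1 of 5 of the 8 libraries (adjusted p up to 0.108).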

How the data were processed

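The authors trimmed reads with cutadapt, quantified UCSC knownGene transcripts of mm9 with Kallisto at default settings, without use of strand, summarised them per gene with tximport and normalized them with DESeq2, and deposited log2(normalized count + 1) for 19421 genes in 28 libraries of 7 lines. Tool versions are not given in the sources used here. Of the deposited values up to 20 normalized counts, 70.8% to 79.5% per library lay within 0.05 of a whole multiple of 1 read, which is not nearly all, so reads were not recovered and no count model was run.

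A gene was tested if 2 or more libraries reached 10 normalized counts (16837 genes). Log2 values with a pseudocount of 1 were fitted with limma 3.58.1 (R 4.3.3, trend, 14 groups, 14 residual degrees of freedom) and adjusted by the Benjamini-Hochberg method over all genes. SE values and adjusted p-values throughout are from that fit. Calls needed an adjusted p below 0.05 and a log2 difference of at least 1.5. Named genes were the transgenes, the markers of the study, the 12 largest positive and 10 largest negative differences of like sign in all 4 replicate combinations, without clustered protocadherins, genes without a symbol and genes switching between untreated libraries, and up to 3 called genes per list, or the member of largest difference where none was called. Members, lists and tests were chosen with earlier results of these data known. The contrasts with iPou4f3 and with iGPA minus iG+A, and the muscle list, were added after the values were seen.

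The series record describes replicates as different clones. That same-numbered libraries of a line share a clone is taken from this and not stated outright, and same-numbered Dox and untreated libraries deviated together in all 7 lines (correlations of 0.103 to 0.246). The replicate as a block was an alternative, as were other pseudocounts, filters, normalizations and sets of libraries. Gene positions are NCBIM37 (mm9) and promoters RefSeq GRCm38.p6. Depth limits precision only for low genes. The p-values rest on the spread within groups pooled over all 28 libraries, and not on that of the compared clones alone. A few genes are not reported here.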

Additional observations from a re-analysis of the deposited data

Results flagged for a closer look

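Both counts of genes whose Dox effect differed between iP+A and iAtoh1, 352 higher and 116 lower, are differences between lines under the same contrast, tested by limma. Groups of 2 libraries are too small for a check of single libraries that stand apart.

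Among the 77 genes named by the preset rule, which leaves out genes named after their values were seen, 12 differed between the addition of Pou4f3 to Atoh1 and the Dox effect in iPou4f3. On the log2 scale the excess was 7.72 for Six3, 6.65 for its overlapping antisense gene Six3os1, 4.75 for Scrt1, 4.71 for Scg3, 4.36 for Pou4f1, 3.68 for Tmem132e, 3.32 for Cacna1b and 2.44 for Chrnb2. The difference was -6.69 for Wnt10a, -5.47 for Ntn5, -4.00 for Gdf10 and -2.97 for Lfng, where the value of Ntn5 depends on the pseudocount because it was listed at 0 in both iP+A Dox libraries.

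Against the addition of Pou4f3 to Gfi1 and Atoh1, 5 of the same 77 genes differed, by 7.58 for Tmem132e, 5.82 for Aldh1a7, 5.39 for Pou4f1, 1.61 for Cacna2d2 and -3.31 for Lfng. Pou4f1, Tmem132e and Lfng differed in both contrasts. Both contrasts were added after the values were seen, and the 2 share the libraries of iP+A and iAtoh1. The contrast with iPou4f3 also holds Dox exposure and sorting, since no line is subtracted from the iPou4f3 effect.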

How the results depend on the processing

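The counts of 352 higher and 116 lower genes stayed within 1.5 times under other pseudocounts, filters and normalizations and without the trend (339 to 390 higher, 109 to 134 lower). With the replicate block of each line they were 412 and 163, and of the 77 genes named by the preset rule only Cartpt changed its call. Genes named after their values were seen were followed only through the omission of single libraries. With only the 8 libraries of both lines in the fit they were 193 and 56, from the Dox libraries alone 581 and 212, and at a log2 difference of at least 1 the lower genes numbered 176. Leaving out 1 library gave 243 to 384 higher and 75 to 122 lower genes, with 243 without iP+A Dox replicate 1 and 75 without iAtoh1 Dox replicate 2. No called gene changed sign under any of these alternatives. Of the 61 of these 77 genes that were called, 33 kept their call in every alternative, and 21 lost it in the fit of only the 8 libraries. With 2 clones per group, each line rests on few samples, and sorting was joined to Dox. The cause of the changes in number was not tested.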
